A study of Sus scrofa with 2 samples.

Results

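Aquaporins are the channels through which water, and in some members glycerol, crosses cell membranes. The 10 genes AQP1, AQP2, AQP3, AQP4, AQP5, AQP6, AQP7, AQP8, AQP9 and AQP11 were chosen by name, and 9 of them were matched among the 27622 features of the deposited table. AQP1, the water channel of red blood cells and of fibrocytes in the cochlear wall, was not matched and is not analysed here. AQP8 was matched through its gene description, to 2 features.

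The RNA was from cochlear lateral walls, stria vascularis (SV) included, of Rongchang pigs, and each genotype, Mitf R/r and Mitf r/r (MITF in the labels, which name the tissue as SV), had 1 library (R/r and r/r for short). The r allele differs from R by small sequence changes, insertions among them, in distal DNA that controls the melanocyte isoform of MITF, and r/r animals are albino and profoundly deaf, whereas R is the allele of normal pigs. The R/r library thus also comes from a carrier of the r allele, and no library of R/R pigs is included. The labels give the age as postnatal day 1 for each library, whereas the text of the study places the sampling before birth; the sex of the animals, and whether RNA was pooled, are not given in the sources used here. The dissected wall holds the SV, the spiral ligament and whatever adjoins them, so a gene's value sums over all of these cells, and fewer cells of a type cannot be told apart from less RNA per cell.

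Aquaporins let water follow osmotic gradients that ion pumps create. The classical members (AQP1, AQP2, AQP4, AQP5) conduct mainly water, the aquaglyceroporins (AQP3, AQP7, AQP9) also pass glycerol, and AQP6, AQP8 and AQP11 are known largely from membranes inside the cell or for other permeants. In the cochlea, the potassium-rich endolymph is made by the SV, and AQP4 and AQP5 are known from epithelial cells that border this fluid, AQP4 in supporting cells of the sensory epithelium and AQP5 in outer sulcus cells.

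Expression was given by the authors in RPKM, in which the reads of a gene are divided by its exon length and by the mapped reads of its library, so levels can be compared between genes. Whole reads could be worked out from the RPKM values, and they correspond to 15829244 mapped reads in R/r and 14258672 in r/r. On an exon model of 1 kb, 1 read was worth 0.0632 RPKM in R/r and 0.0701 RPKM in r/r. All intervals given here are 95% intervals from the recovered reads. They reflect counting alone, since reads without molecular identifiers are not independent molecules. As each genotype had 1 library, there is no replicate check and no p-value, and every difference compares these libraries rather than the genotypes.

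The MITF gene itself had 51.7 RPKM in R/r and 37.8 RPKM in r/r, and the melanocyte enzyme DCT had 171 and 1.19 RPKM. Markers of fibrocytes (COCH, 6826 and 4914 RPKM), marginal cells (KCNE1, 278 and 248 RPKM) and basal cells (CLDN11, 840 and 706 RPKM) were abundant in each library.

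Aquaporin transcripts were scarce in this tissue, and a few genes accounted for most of them. The summed RPKM of the 9 matched genes was 17.5 in R/r and 20.4 in r/r, which came from 576 and 535 reads and made up 0.00292% and 0.00332% of all RPKM. AQP11, AQP5, AQP4 and AQP6 were at 1 RPKM or more in both libraries. AQP3, AQP9 and AQP2 were above 0 but below 1 RPKM in both, and AQP7 and AQP8 were listed at 0 in both. For comparison, the median of all features above 0 was 6.71 RPKM in R/r and 6.59 RPKM in r/r, so that only AQP11 lay above the median in the R/r library, and AQP11 and AQP5 in the r/r library.

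**Figure D1:**
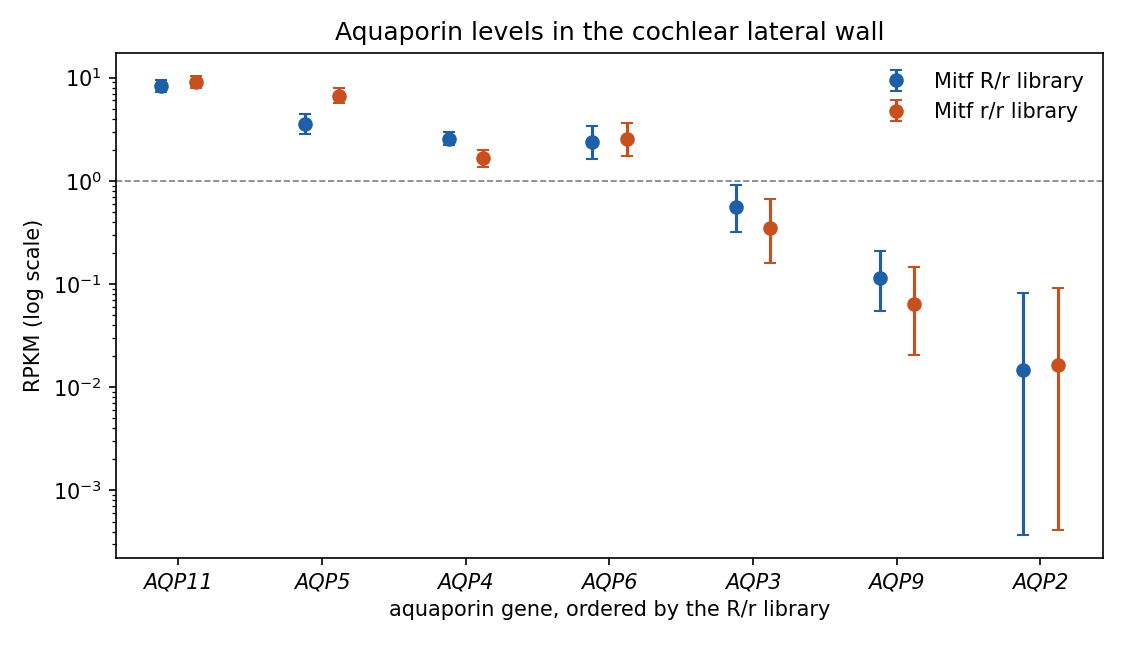
RPKM of the 7 aquaporin genes above 0 (log scale), in the Mitf R/r library (blue) and the Mitf r/r library (orange); bars are exact Poisson 95% intervals from the reads and the dashed line marks 1 RPKM. AQP11 was highest in both libraries, the points of AQP5 (3.55 and 6.70 RPKM) and AQP4 (2.56 and 1.65 RPKM) differed in opposite directions, and AQP3, AQP9 and AQP2 lay below the line.

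AQP11, an unusual family member known from the endoplasmic reticulum and needed in the mouse kidney, had the highest level. The gene is ENSSSCG00000014880, with an exon model of 1741 bases. It reached 8.31 RPKM in R/r (95% interval 7.27 to 9.46, from 229 reads) and 9.10 RPKM in r/r (7.96 to 10.4, from 226 reads). Its log2 ratio, r/r over R/r, was 0.13 (-0.14 to 0.40). The intervals of the levels overlapped, and the interval of the ratio allows a change of at most 1.32-fold upward or 1.10-fold downward in the r/r library. Of all features above 0, 54.5% were below AQP11 in R/r and 56.8% in r/r.

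AQP5, the channel of the apical membrane of salivary, lacrimal and airway gland cells, was second in both libraries and was the aquaporin with the highest ratio. Its feature, ENSSSCG00000000211, had an exon model of 1529 bases. Its level was 3.55 RPKM in R/r (2.84 to 4.39, from 86 reads) and 6.70 RPKM in r/r (5.65 to 7.88, from 146 reads). These intervals did not overlap. The r/r level was 1.88-fold the R/r level (1.43 to 2.49), a log2 ratio of 0.91 (0.52 to 1.32) that fell short of 2-fold, although its interval reached beyond it. Among the 16331 features above 0 in both libraries with at least 1 RPKM in one of them, 2.16% had a ratio at or above that of AQP5. Among the 4375 of these with 116 to 464 reads over both libraries, 1.07% did.

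AQP4, the channel of astrocyte end-feet and of supporting cells in the organ of Corti, differed in the other direction. It is listed as ENSSSCG00000024342, with an exon model of 4982 bases, the longest of the 4 genes at 1 RPKM or more. It had 2.56 RPKM in R/r (2.22 to 2.94, from 202 reads) and 1.65 RPKM in r/r (1.36 to 1.97, from 117 reads). Here too the intervals of the levels did not overlap. The R/r level was 1.56-fold the r/r level (1.23 to 1.97), a log2 ratio of -0.64 (-0.98 to -0.30), so that the interval stopped just short of 2-fold. A ratio at or below that of AQP4 was found in 5.40% of all features compared and in 3.11% of the 4559 with 159.5 to 638 reads.

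AQP6 (ENSSSCG00000000212, exon model of 849 bases), an anion-permeable member known from vesicles of kidney intercalated cells, had 2.38 RPKM in R/r (1.63 to 3.36) and 2.56 RPKM in r/r (1.74 to 3.63). These values rested on only 32 and 31 reads. Its log2 ratio was 0.10, with an interval (-0.66 to 0.86) that spans no change. The interval allows an r/r level up to 1.82-fold higher or 1.58-fold lower, and differences within these bounds are left undecided.

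**Figure D2:**
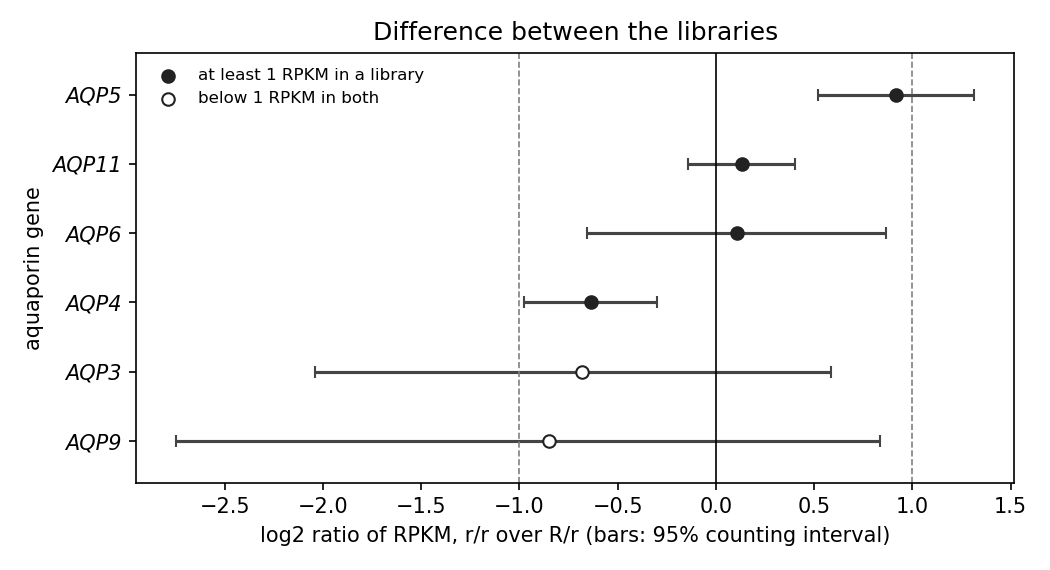
Log2 ratio of RPKM, r/r over R/r, of the 6 aquaporins with more than 1 read per library; bars are 95% intervals from the reads, filled points have at least 1 RPKM in a library and dashed lines mark 2-fold. The bar of AQP5 lies to the right of 0 (0.52 to 1.32) and that of AQP4 to the left (-0.98 to -0.30), while the bars of AQP11, AQP6, AQP3 and AQP9 cross 0.

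Among the aquaglyceroporins, AQP3, the glycerol and water channel of epidermis and of the collecting duct, was the one with the most reads. It had 0.560 RPKM in R/r (16 reads) and 0.350 RPKM in r/r (9 reads), with a log2 ratio of -0.68 (-2.04 to 0.59). AQP9, the glycerol channel of liver and leukocytes, had 0.114 RPKM (10 reads) and 0.0633 RPKM (5 reads), with a log2 ratio of -0.85 (-2.75 to 0.83). Both were lower in the r/r library by their values, and both intervals span no change. AQP7, the glycerol channel of fat cells, was listed at 0 in both libraries. AQP8, known from liver, pancreas and colon, was listed at 0 in both libraries in each of its 2 features. A count of 0 on an exon model of 1 kb allows up to 0.190 RPKM in R/r and 0.210 RPKM in r/r.

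AQP2, the vasopressin-regulated channel of the kidney collecting duct, had 1 read in each library, at 0.0147 and 0.0164 RPKM. That is below the 0.0442 and 0.0491 RPKM that a count of 0 allows for a gene of its exon length. The RefSeq gene order places AQP2, AQP5 and AQP6 next to each other, and AQP3 next to AQP7. Levels within these clusters were unequal: in the r/r library AQP5 had 6.70 RPKM, while AQP2 and AQP6 on its sides had 0.0164 and 2.56 RPKM. FAIM2, on the other side of AQP2, had 11.6 RPKM in R/r and 16.2 RPKM in r/r (log2 ratio 0.48, 0.35 to 0.61), and RACGAP1, on the other side of AQP6, had 1.32 and 1.16 RPKM (-0.19, -1.27 to 0.86). Beside AQP4, CHST9 had 8.77 and 11.96 RPKM (0.45, 0.24 to 0.65) and KCTD1 had 12.9 and 11.8 RPKM (-0.12, -0.31 to 0.08), so neither neighbour was lower beyond counting error as AQP4 was. Whether the counting used strand is not given in the sources used here.

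In order of level, the R/r library had AQP11, AQP5, AQP4, AQP6, AQP3, AQP9 and AQP2, and the r/r library had the same order but with AQP6 above AQP4. In the R/r library AQP4 and AQP6 were not apart beyond counting error, with a ratio of levels of 1.08 (0.74 to 1.61). In the r/r library AQP6 was 1.55 times AQP4 (1.01 to 2.33), which was no longer beyond counting error with the reads halved, as for mates counted apart (0.83 to 2.76). AQP9 and AQP2 were not apart in the r/r library (ratio 3.87, 0.43 to 183). The other neighbours in the order were apart, but with the reads halved AQP5 over AQP4 (0.95 to 2.001) and AQP9 over AQP2 (0.53 to 9073) in R/r, and AQP3 over AQP9 (0.94 to 44.3) in r/r, were not. AQP11 and AQP5 were apart by a ratio of 2.34 (1.82 to 3.03) in the R/r library and of 1.36 (1.10 to 1.69) in the r/r library. The distance between the leading genes was thus narrower in the r/r library, and AQP11 relative to AQP5 there was 0.581 times its value in the R/r library (0.415 to 0.813).

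The ratio of one aquaporin to another within a library does not depend on the scaling between libraries. AQP5 was 1.39 times AQP4 in the R/r library and 4.07 times AQP4 in the r/r library, a difference of 2.93-fold (95% interval of the odds ratio 2.03 to 4.23). AQP11 over AQP4 went from 3.24 to 5.53, a difference of 1.70-fold (1.26 to 2.31). AQP5 over AQP6 was 1.49 and 2.62, a difference of 1.75-fold whose interval (0.96 to 3.19) includes no change.

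**Figure D3:**
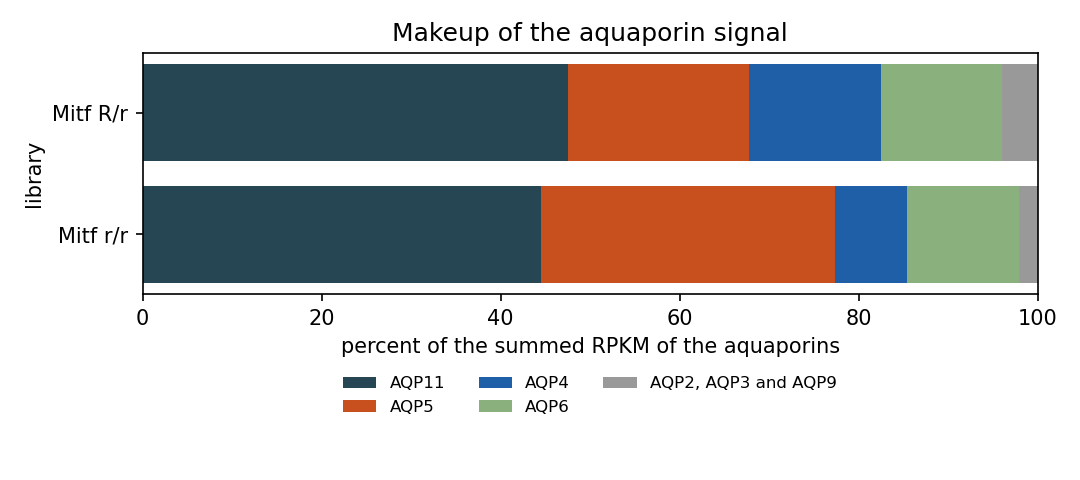
Share of each gene in the summed RPKM of the aquaporins (percent), in each library; each bar adds up to the whole sum of its library. AQP5 took 20.3% in R/r and 32.8% in r/r, AQP4 took 14.6% and 8.06%, and AQP11 was the widest segment in both, with 47.5% and 44.5%.

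As a share of all aquaporin RPKM, AQP11 made up 47.5% in R/r and 44.5% in r/r. AQP5 made up 20.3% and 32.8%, AQP4 14.6% and 8.06%, and AQP6 13.6% and 12.5%. These shares are of summed RPKM, not of water permeability, and each moves when another changes.

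The 2-fold threshold of the study, applied here on fold alone, was met by 0 of the 4 aquaporins that passed the minimum. Of the 16331 features compared, 3.99% met it (2.20% lower and 1.78% higher in the r/r library). The study listed far fewer genes at 2-fold, each with a p-value, so this share is not comparable with its list. At 1.5-fold, 2 of the 4 were called, AQP5 higher and AQP4 lower, against 10.8% of all features (4.53% higher and 6.31% lower). The interval lay wholly off 0 in the same 2 genes, against 25.2% of all features (11.0% above 0 and 14.2% below). The median log2 ratio of the 4 genes was 0.12, against -0.02 over all features. With 4 genes, these counts describe the members and set nothing apart.

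**Figure D4:**
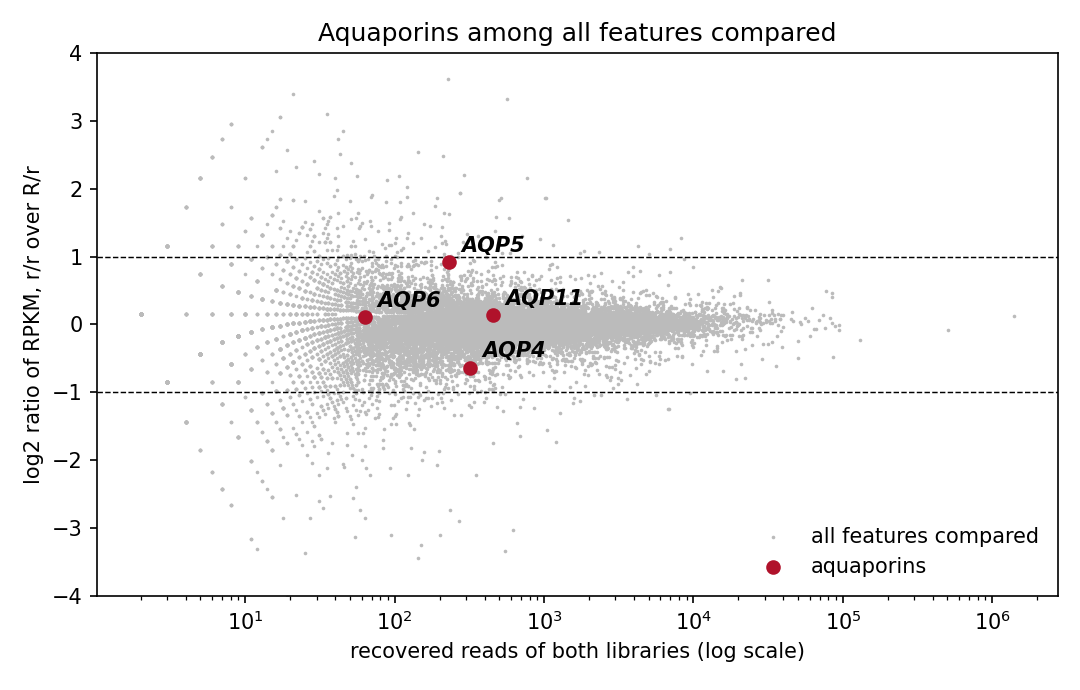
Log2 ratio of RPKM, r/r over R/r, against the recovered reads of both libraries (log scale), for all features compared (grey) and the 4 aquaporins that passed the minimum (red); dashed lines mark 2-fold, and 21 features beyond 4 on the log2 scale are not drawn. AQP5 lies above most features with similar reads, just under the 2-fold line, AQP4 lies below most of them, and AQP6 and AQP11 lie in the middle.

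By the distance of log2 RPKM over the 2 libraries, the features with levels most like those of AQP11 were PLEKHA3 (8.34 and 9.08 RPKM, distance 0.0059), MD-2 (8.39 and 9.04 RPKM, 0.017) and BRAF (8.37 and 9.27 RPKM, 0.028). Nearest to AQP5 were C8orf48 (3.46 and 6.43 RPKM, distance 0.070), UPK3A (3.68 and 6.46 RPKM, 0.073) and BPIFB6 (3.47 and 7.14 RPKM, 0.099). With 2 libraries, such a likeness is a match of a pair of values and no more.

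In 5 lists of genes that act on or with aquaporins, 38 of 47 were matched and 31 passed the minimum. Of these 31, 0 were at least 2-fold apart, against 3.99% of all features. At 1.5-fold, 2 were lower in r/r (AVPR2 and TRPV4) and 0 higher, against 6.31% and 4.53% of all features. Intervals lay below 0 in 5 and above 0 in 4 of them, against 14.2% and 11.0% of all features, and the median log2 ratio was -0.11, against -0.02. Of the other aquaporins, MIP, the lens channel, had 1 read in each library and AQP10, a glycerol channel of the intestine, had 2 reads and 1 read.

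AQP4 is held at the membrane by the dystrophin complex. All 10 genes of this list that passed the minimum were at 1 RPKM or more in both libraries, with a median log2 ratio of -0.10. DAG1, the dystroglycan gene, had the highest mean of the 11 matched genes, with 76.3 and 72.5 RPKM (log2 ratio -0.07, -0.15 to 0.00029). SNTB1, a syntrophin gene named here after its values were seen, was lower in the r/r library, at 23.0 and 18.8 RPKM (-0.30, -0.40 to -0.19).

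In vasopressin and cAMP signalling, the pathway that moves AQP2 to the membrane, 7 of 9 matched genes passed the minimum and their median log2 ratio was -0.11. PRKACA, the catalytic subunit of protein kinase A, was the highest at 45.5 and 48.6 RPKM (0.09, 0.00093 to 0.19). ADCY6, an adenylyl cyclase that makes cAMP, was the one gene of the list with an interval below 0, at 24.9 and 20.5 RPKM (-0.28, -0.37 to -0.19). The hormone and its receptors were at low levels. AVPR2, the kidney receptor, named after its values were seen, had 1.23 RPKM in R/r and 0.657 RPKM in r/r from 29 and 14 reads (-0.90, -1.93 to 0.07). AVPR1B was listed at 0 in both libraries, and AVP had 2 reads in the r/r library and none in the R/r library.

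For cell volume and osmotic response, 10 of 11 genes passed the minimum, with a median log2 ratio of -0.00077. SLC12A2, the sodium, potassium and chloride cotransporter that feeds potassium into marginal cells, was the highest at 312 and 334 RPKM (0.10, 0.05 to 0.15). SLC5A3, the inositol carrier that cells induce under osmotic stress, had 4.90 and 6.41 RPKM (0.39, 0.03 to 0.75). LRRC8A, a subunit of the volume-regulated anion channel, had 18.4 and 16.4 RPKM (-0.16, -0.26 to -0.06). TRPV4, a cation channel that responds to cell swelling, had 2.41 and 1.29 RPKM from 25 and 12 reads (-0.91, -2.04 to 0.14). ADCY6, SLC5A3, LRRC8A and TRPV4 were named after their values were seen.

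For glycerol handling, which the aquaglyceroporins serve, 4 of 5 matched genes passed the minimum, with a median log2 ratio of -0.13. GPD1, which makes glycerol phosphate, was the highest at 63.4 RPKM in R/r and 44.8 RPKM in r/r (-0.50, -0.63 to -0.38). GK, the kinase that takes up free glycerol into metabolism, had 3.46 and 3.17 RPKM (-0.13, -0.57 to 0.31).

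**Figure D5:**
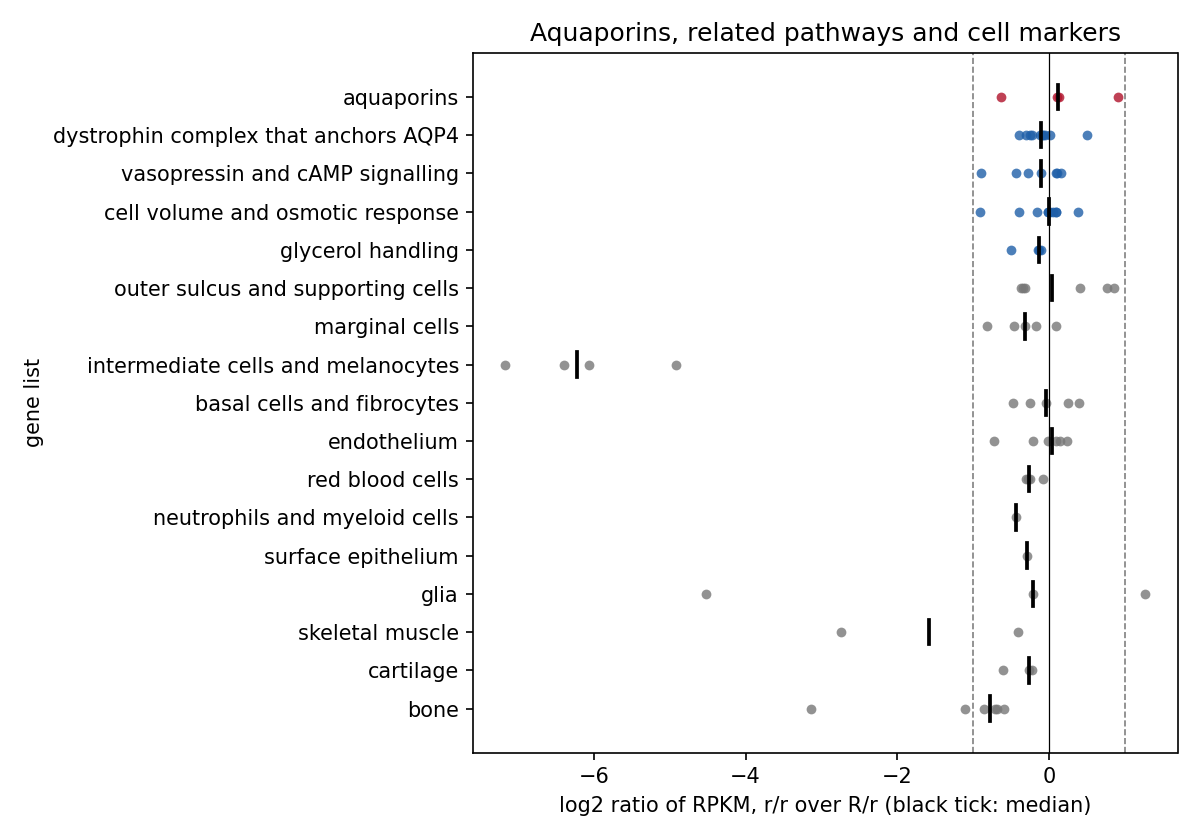
Log2 ratio of RPKM, r/r over R/r, of each gene that passed the minimum, for the aquaporins (red), lists of related pathways (blue) and lists of cell type markers (grey); black ticks mark medians and dashed lines 2-fold. The aquaporins spread from -0.64 to 0.91 around a median of 0.12, the pathway genes stayed within 2-fold, and the markers of intermediate cells and melanocytes lie far to the left, with a median of -6.23.

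Markers of cells known for single aquaporins were read beside them. Of 7 markers of outer sulcus and supporting cells, 6 passed the minimum, with 3 higher and 3 lower in the r/r library, a median log2 ratio of 0.05 and summed levels of 1701 and 2260 RPKM. Most of this sum was EPYC, an extracellular matrix gene, at 1676 and 2234 RPKM (0.41, 0.37 to 0.46). TECTA, a tectorial membrane gene named after its values were seen, had 5.38 and 9.78 RPKM (0.86, 0.59 to 1.13), the direction of AQP5, whereas OTOG, another tectorial membrane gene, had 10.6 and 8.48 RPKM (-0.32, -0.44 to -0.21). SLC26A4, the pendrin gene of outer sulcus cells, had 0.209 and 0.116 RPKM from 8 and 4 reads. The part of these cells in the AQP5 and AQP4 differences was not tested.

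Of the glial markers, 3 of 4 matched genes passed the minimum, with summed levels of 74.5 and 141 RPKM. GFAP, the intermediate filament of astrocytes, had 56.2 RPKM in R/r and 136 RPKM in r/r (1.28, 1.21 to 1.34), the opposite direction to AQP4. Of the skeletal muscle markers, which were matched for 4 genes and summed to 8.54 and 4.67 RPKM, MYH1 had 2.98 and 0.445 RPKM (-2.74, -3.37 to -2.17), CKM had 5.08 and 3.82 RPKM and ACTA1 was at 0 in R/r and at 1 read in r/r. Fast muscle fibres are known to carry AQP4, and the part of muscle in the AQP4 difference was not tested.

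Of 6 listed markers of fat cells, only 3 were matched, and these were near 0, as was AQP7. PLIN4 had 0.129 and 0.128 RPKM, PLIN1 had 3 reads and 1 read, and LEP was listed at 0 in both. All 7 markers of neutrophils and myeloid cells were matched, with summed levels of 7.03 and 5.09 RPKM, of which ELANE gave 4.71 and 3.49 RPKM from 15 and 10 reads, and only this gene passed the minimum. S100A8 and S100A9, known as abundant transcripts of neutrophils, had 4 and 2 reads each, which stands beside the 10 and 5 reads of AQP9. LTF, named after its values were seen, went the other way, with 6 and 15 reads (log2 ratio 1.47, 0.03 to 3.13). The other genes of this list were lower in the r/r library by their values. The part of these cells in the AQP9 values was not tested. In surface epithelium, where AQP3 is at home, KRT1 and BPIFA1 were listed at 0 in both libraries, KRT5 and TP63 were at 0 in R/r and KRT14 was at 0 in r/r, while KRT10 had 10.1 and 8.24 RPKM.

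The remaining lists of the wall gave the following background. Of the marginal cell markers, 4 of 5 were lower and 1 higher in the r/r library (median log2 ratio -0.31), and summed levels were 1586 and 1168 RPKM. Most of the difference between these sums was ATP1B2, a sodium pump subunit and the highest gene of the list, at 915 and 522 RPKM (-0.81, -0.85 to -0.77). Basal cell and fibrocyte markers had 3 of 5 lower (median -0.04), with sums of 9189 and 7590 RPKM. Endothelial markers had 3 of 6 lower (median 0.04) and red blood cell markers 4 of 4 lower (median -0.26), with CLDN5 at 71.3 and 76.3 RPKM and HBB at 1655 and 1393 RPKM as their highest genes. Cartilage markers had 3 of 3 lower (median -0.27), with COL2A1 at 1773 and 1474 RPKM. Bone markers had 6 of 6 lower (median -0.78), with IBSP at 431 and 268 RPKM and with DMP1 and MEPE at least 2-fold lower. Markers of intermediate cells and melanocytes had 4 of 4 at least 2-fold lower, DCT, KCNJ13, TYR and PMEL, at log2 ratios from -7.17 to -4.92. KIR1.2, another such marker in the paper, named here after its values were seen, fell less. It had 361 reads in R/r and 97 in r/r, a log2 ratio of -1.75 (-2.08 to -1.42). The paper lists KIT among the markers that remained in r/r, and reports intermediate cells still present before birth. These ratios thus do not measure loss of the cells. The part of the cells of these lists in the aquaporin values was not tested.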

How the data were processed

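RNA-seq was analysed in 2 libraries, 1 per genotype. The authors aligned 100-bp paired reads to Sscrofa10.2 with TopHat (2.0.7, per the labels) and deposited a table of RPKM values; the counting program and annotation are not given in the sources used here. Features were named by the table's symbols (16376), its descriptions (307) or an Ensembl name table (1627). For a symbol with several features, values are from its feature of highest mean RPKM. The authors' differences and ratios of some genes, in 2 unnamed columns, were left out.

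Log2 ratios of RPKM, r/r over R/r, had no pseudocount and were called at 2-fold among features above 0 in both libraries with at least 1 RPKM in one. The smallest whole reads were found for 100% of 19347 features, library totals were set to make exon lengths whole, and reads were multiplied by up to 20 where the exon length was then whole within 0.002 bases, which changed AQP5 and AQP9. The true reads may still be a multiple. Intervals are exact Clopper-Pearson for ratios, exact Poisson for levels and conditional odds ratio intervals for ratios of ratios. On simulated data of 18892 genes for this comparison, 83.2% had the exact reads and 96.7% of intervals held the true ratio.

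The members, lists and alternatives were chosen with earlier results of these data known. By rule, the genes named are the aquaporins, list genes at least 2-fold apart or highest in their list, and the 3 features nearest in level to AQP11 and to AQP5. Other list genes and the neighbours in gene order (RefSeq, Sscrofa11.1) were named after their values were seen. Values of some list genes are not reported here. Versions were matplotlib 3.10.9, scipy 1.17.1, pandas 2.3.3, numpy 2.4.6 and Python 3.11.15.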

Additional observations from a re-analysis of the deposited data

How the results depend on the processing

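No paired analysis was possible because each genotype had only 1 library. The 2-fold count of 0 aquaporins became 2 at a 1.5-fold threshold, by construction, and stayed 0 with pseudocounts of 0.1 and 1 RPKM, with no minimum or a minimum of 5 RPKM, at 4-fold, and when the values were converted to TPM or scaled by their upper quartile or median. The number of aquaporins expressed in both libraries, 4, became 1 when 5 RPKM was required, again by construction. The log2 ratio of AQP5 ranged from 0.76 with a pseudocount of 1 RPKM to 0.93 with scaling by the median, and that of AQP4 from -0.67 under TPM to -0.43 with a pseudocount of 1 RPKM. None of the 7 log2 ratios left its interval or changed sign under these settings.

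As an alternative chosen after seeing the data, the reads were halved, as if both mates of each pair had been counted. The interval of AQP5 was then 0.35 to 1.49 and that of AQP4 -1.13 to -0.16, both still off 0. With halved reads the order of AQP6 above AQP4 in the r/r library (0.83 to 2.76) was no longer beyond counting error, nor were AQP5 above AQP4 (0.95 to 2.001) and AQP9 above AQP2 in the R/r library and AQP3 above AQP9 in the r/r library. With the smallest whole reads, without the step on exon lengths, the interval of AQP5 was also 0.35 to 1.49. Depth limits AQP6, AQP3, AQP9 and AQP2 most, and the genotype cannot be told apart from differences between animals or dissections.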
